A study of Mus musculus with 8 samples.

Results

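The 10 genes described here encode matrix and stromal products: Fn1, Col1a1, Col1a2, Col3a1, Col6a3, Sparc, Acta2, Tagln, Vwf and Thbs1. They are 10 of the 24421 genes in the count table, and they were listed by name because stromal markers had been seen to be higher after 4-hydroxytamoxifen (4-OHT) in one of the lines, MATIP. The MATIP values below are therefore given as a description, with no test. The other line, MAflox, was tested. All 10 genes had at least 1 count, 8 passed the filter on low counts, and Col1a2 and Col3a1 did not.

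The libraries are bulk RNA-seq of mouse bone marrow cells that carry MLL-AF10, a leukaemia fusion of a histone methyltransferase with AF10. Every group is from strain C57BL/6 and was kept in methylcellulose, a semi-solid medium, supplemented with the blood progenitor growth factors GM-CSF, IL-3 and SCF. MATIP cells carry MLL-AF10, Tip60 flox/flox and Cre-ERT2, a recombinase that 4-OHT switches on, so that 4-OHT is meant to delete Tip60, a histone acetyltransferase encoded by Kat5. MAflox cells are named MLL-AF10 flox cells, with no statement of whether Cre-ERT2 is present in them. Cells of each line received 4-OHT at 100 nM or its solvent ethanol (EtOH), and RNA was taken after 4 days. There are 2 libraries in each of the 4 groups. The labels name no separate cultures or animals, so a p-value here reflects the spread between libraries, which may be technical.

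The matrix outside cells is built from fibrillar collagens, chiefly types I and III, from microfibrils of type VI collagen, and from glycoproteins such as fibronectin that link these fibres to integrins on the cell surface. Matricellular proteins such as thrombospondin and SPARC sit in the matrix and change how cells adhere and respond to growth factors without being structural. In marrow, collagens, smooth muscle actin and transgelin are mostly products of fibroblasts, pericytes and smooth muscle, while von Willebrand factor is made by endothelium and megakaryocytes. Several of the genes also have sources among blood cells: macrophages make fibronectin and thrombospondin, and platelets store thrombospondin, fibronectin, SPARC and von Willebrand factor.

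Totals ranged from 41101309 to 57312490 counts per library. Levels are given as TMM-scaled CPM (read counts scaled to a common library size), and responses as log2 fold changes of 4-OHT against EtOH with their standard error (SE) from edgeR's quasi-likelihood fit to all 8 libraries. Kat5 measured 41.1 and 41.2 CPM in MATIP EtOH and 8.11 and 8.32 CPM in MATIP 4-OHT. In MAflox, Kat5 measured 43.7 and 41.2 CPM with EtOH and 57.5 and 62.5 CPM with 4-OHT, so it was lower after 4-OHT in MATIP alone of the lines.

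In MAflox, 5 of the 8 tested genes rose with 4-OHT (Acta2, Col1a1, Fn1, Thbs1 and Vwf), Col6a3 fell, and Tagln did not pass the test (edgeR's quasi-likelihood test, Benjamini-Hochberg adjustment over 13722 genes, called at 0.05). Sparc is the remaining one: it was kept by the filter only through MATIP 4-OHT and is given by its counts. Of all genes tested in this contrast, 33.1% rose and 32.1% fell, so most genes were called and a call by itself does not set a gene apart. Both 4-OHT libraries lay above both EtOH libraries for 6 of the 8 in MAflox and below them for 1, beside 41.4% and 39.7% of all genes tested. In MATIP, all 8 tested genes had both 4-OHT libraries above both EtOH libraries. That held for 44.2% of all genes tested, while by the test 37.5% rose and 38.6% fell, and since the genes were listed for this contrast nothing is read from their count. The listing as genes that go up with 4-OHT did not hold for every one: Col1a2 and Col3a1 were near 0 throughout, Col6a3 went in opposite directions in the lines, and Tagln moved little in either. In bulk RNA, a change in the number of cells of a type and a change in RNA per cell cannot be told apart.

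**Figure D1:**
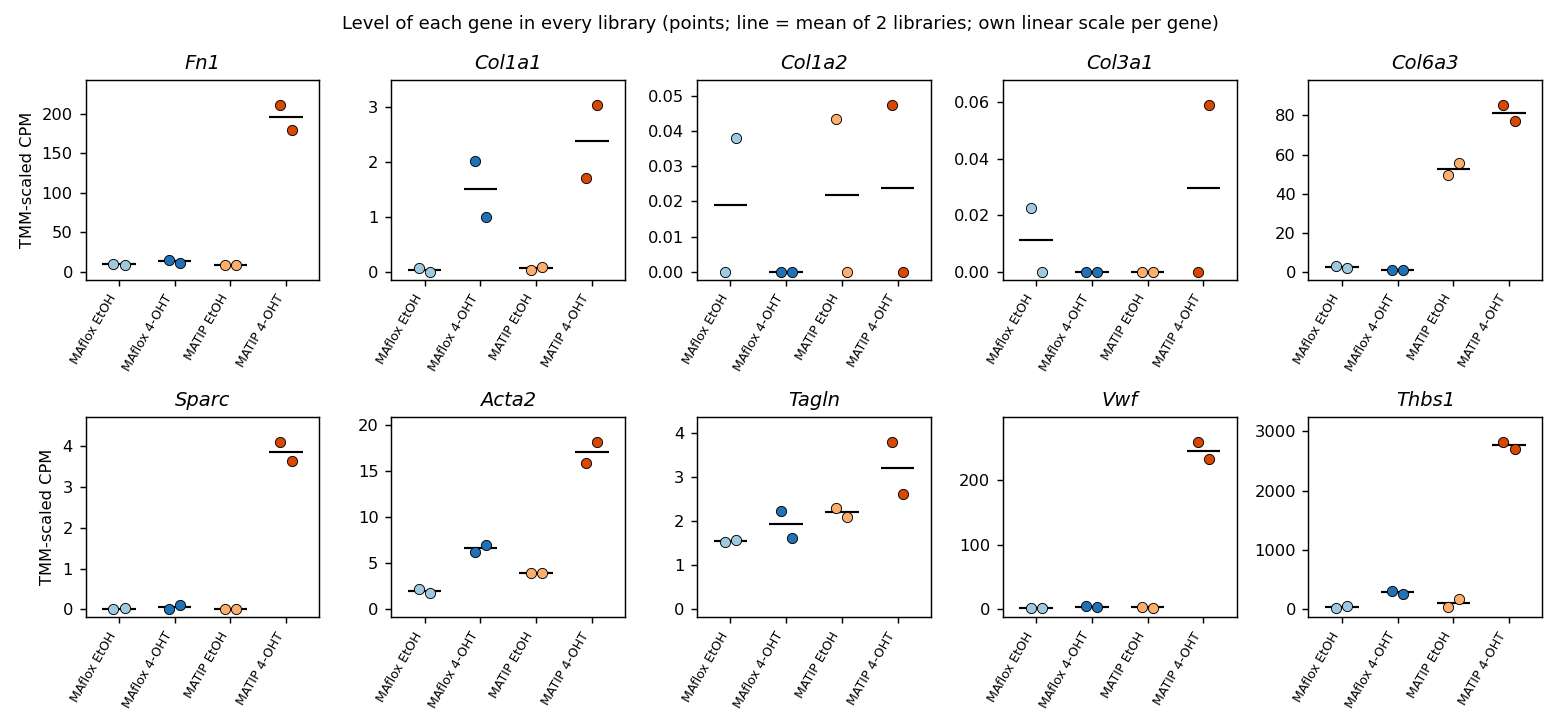
TMM-scaled CPM of each of the 10 genes (vertical axes, one panel per gene) in each of the 8 libraries, grouped by line and treatment; each point is 1 library and each line the mean of 2. Fn1, Vwf, Thbs1 and Sparc stand highest in the 2 MATIP 4-OHT libraries, Col6a3 is high in all 4 MATIP libraries, and Col1a2 and Col3a1 lie at or near 0 in all 8.

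Fn1 (chromosome 1, 71585520 to 71653200, minus strand, mm10) encodes fibronectin, the glycoprotein that cells assemble into fibrils through integrin alpha-5 beta-1. It measured 9.88 and 9.08 CPM in MAflox EtOH, 14.8 and 11.95 CPM in MAflox 4-OHT, 8.26 and 9.33 CPM in MATIP EtOH, and 211.1 and 179.2 CPM in MATIP 4-OHT. Both MATIP 4-OHT libraries stood far above the other 6, which lay within a narrow range. In MAflox, Fn1 rose by 0.50 ± 0.11 (log2 fold change ± SE, edgeR adjusted p = 0.000628). In MATIP the log2 fold change was 4.47 ± 0.11, or 22.1-fold, and the MATIP response exceeded the MAflox response by 3.96 ± 0.15 on the log2 scale. In EtOH, MATIP minus MAflox was -0.10 ± 0.12 for Fn1 (log2). The genes of its main receptor went their own way: Itga5 fell in MAflox from a mean of 48.5 to 30.3 CPM and rose in MATIP from 54.1 to 75.0 CPM, and Itgb1 passed the test in neither line (edgeR adjusted p = 0.41 and 0.0597).

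Thbs1 (chromosome 2, 118111876 to 118127133, plus strand) encodes thrombospondin-1, which binds CD47, CD36 and integrins and can activate latent TGF-beta. It measured 30.3 and 52.8 CPM in MAflox EtOH, 316.3 and 259.0 CPM in MAflox 4-OHT, 31.97 and 169.9 CPM in MATIP EtOH, and 2819 and 2710 CPM in MATIP 4-OHT. The 4-OHT libraries lay above the EtOH libraries of the same line, but the MATIP EtOH pair differed widely, with replicate 2 well above replicate 1. Thbs1 rose in MAflox by 2.78 ± 0.43 (log2 fold change ± SE, edgeR adjusted p = 1.09e-05), or 6.89-fold. In MATIP its log2 fold change was 4.77 ± 0.45, or 27.2-fold, and this value hangs on the EtOH library used: it was 4.02 without MATIP EtOH replicate 1 and 6.42 without MATIP EtOH replicate 2. The MATIP minus MAflox difference of 1.98 ± 0.57 (log2) moved with it, to 1.24 and 3.64.

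The partner genes of thrombospondin, chosen for known binding after values were seen, were mostly higher as well. Cd36, a scavenger receptor, rose from 0.971 to 14.95 CPM in MAflox and from 3.11 to 206 CPM in MATIP. Cd47 rose from 405 to 615 CPM in MAflox and from 401 to 709 CPM in MATIP, a much smaller step from a high start. Itgb3, the beta-3 integrin chain, rose from 6.00 to 10.3 CPM and from 6.37 to 53.3 CPM in these lines. Itgav, which pairs with it, rose in MATIP from 65.1 to 140 CPM and had an edgeR adjusted p of 0.125 in MAflox. Tgfb1 itself fell in both lines, from 388 to 289 CPM in MAflox and from 410 to 367 CPM in MATIP.

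Vwf (chromosome 6, 125546774 to 125686679, plus strand) encodes von Willebrand factor, which tethers platelets to collagen and carries clotting factor VIII. It measured 1.36 and 1.52 CPM in MAflox EtOH, 4.80 and 3.04 CPM in MAflox 4-OHT, 4.09 and 2.68 CPM in MATIP EtOH, and 258.2 and 232.3 CPM in MATIP 4-OHT. The MATIP 4-OHT libraries stood apart from the other 6, as for Fn1. In MAflox, Vwf rose by 1.45 ± 0.22 (log2 fold change ± SE, edgeR adjusted p = 1.19e-05), or 2.72-fold. The MATIP log2 fold change was 6.21 ± 0.15, or 73.8-fold, and the difference of the responses was 4.76 ± 0.31 (log2). Genes that work with von Willebrand factor, chosen in the same way as those of thrombospondin, gave a mixed picture. Selp, the P-selectin of platelet and endothelial granules, rose by 2.13 ± 0.49 in MAflox and by 2.49 ± 0.47 in MATIP (log2 fold changes). Gp1ba, the platelet receptor of the protein, and Itga2b passed the test in neither line, and Adamts13, the protease that trims it, had 4 counts over the 8 libraries.

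Sparc (chromosome 11, 55394500 to 55423183, minus strand) encodes a collagen-binding matricellular protein. It had 0 and 2 counts in MAflox EtOH, 0 and 5 in MAflox 4-OHT, 0 and 0 in MATIP EtOH, and 173 and 184 in MATIP 4-OHT, the last being 4.10 and 3.63 CPM. Taking 3 counts in the MATIP EtOH group as a floor, its level in MATIP 4-OHT was at least 135-fold higher. Sparc passed the count filter only through that group. In MAflox its counts were too few to read a test from, and the ratio of its summed counts, scaled for library size, was 2.66 and had a 95% counting interval of 0.436 to 28.0. All 5 of its MAflox 4-OHT counts came from replicate 2, and without that library the fitted log2 fold change was -3.19. The intervals here cover counting error only.

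Col1a1 and Col1a2 encode the alpha-1 and alpha-2 chains of type I collagen, which cells normally assemble together. Col1a1 (chromosome 11, 94936224 to 94953042, plus strand) had 3 and 0 counts in MAflox EtOH, 95 and 43 in MAflox 4-OHT, 2 and 5 in MATIP EtOH, and 72 and 154 in MATIP 4-OHT. All 4 treated libraries were above all 4 controls, at 0.990 to 3.04 CPM, a low level. In MAflox Col1a1 rose by 5.48 ± 0.79 (log2 fold change ± SE, edgeR adjusted p = 5.02e-06), and the ratio of summed counts scaled for library size was 49.0 with a 95% counting interval of 16.4 to 240.6. In MATIP the ratio was 36.7, with an interval of 17.5 to 92.4, and the log2 difference between the lines was -0.35 ± 1.21. The fitted MAflox value was 9.21 without MAflox EtOH replicate 1, where the control group is then at 0 counts, 4.41 without MAflox EtOH replicate 2 and 4.88 without MAflox 4-OHT replicate 1.

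Col1a2 (chromosome 6, 4504814 to 4541544, plus strand) did not accompany Col1a1. It had 0 and 2 counts in MAflox EtOH, 0 and 0 in MAflox 4-OHT, 2 and 0 in MATIP EtOH, and 2 and 0 in MATIP 4-OHT, or 6 counts in all. Col3a1 (chromosome 1, 45311538 to 45349706, plus strand), the only chain of type III collagen, had 4 counts in all, 1 in a MAflox EtOH library and 3 in a MATIP 4-OHT library. Neither gene was tested, no fold is given for them, and a difference between groups was not detectable at this depth. Serpinh1, the collagen chaperone that collagen-making cells rely on, had 21 counts over the 8 libraries, 19 of them in MATIP 4-OHT and 2 in MAflox 4-OHT. Lox, the oxidase that crosslinks collagen, was low too: its mean went from 0.0227 to 0.648 CPM in MAflox and from 0.286 to 2.15 CPM in MATIP, and it passed the test in each.

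Col6a3 (chromosome 1, 90765923 to 90843971, minus strand) encodes the alpha-3 chain of type VI collagen, which forms its trimer with the chains of Col6a1 and Col6a2. It measured 3.11 and 2.17 CPM in MAflox EtOH, 0.888 and 1.11 CPM in MAflox 4-OHT, 49.6 and 55.9 CPM in MATIP EtOH, and 85.4 and 77.1 CPM in MATIP 4-OHT. The lines were already far apart in EtOH, where MATIP was 20.2-fold above MAflox. In MAflox Col6a3 fell by 1.39 ± 0.21 on the log2 scale (edgeR adjusted p = 8.49e-06), or 2.62-fold. In MATIP the log2 fold change was 0.62 ± 0.10, or 1.54-fold, and the responses differed by 2.01 ± 0.23 (log2). With the part of the fold change that follows transcript length and GC content taken out, the MATIP value turned to -0.23 and the MAflox value was -0.87. Its partner chains did not go with it: Col6a1 had 6 counts and Col6a2 had 2 counts over the 8 libraries.

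**Figure D2:**
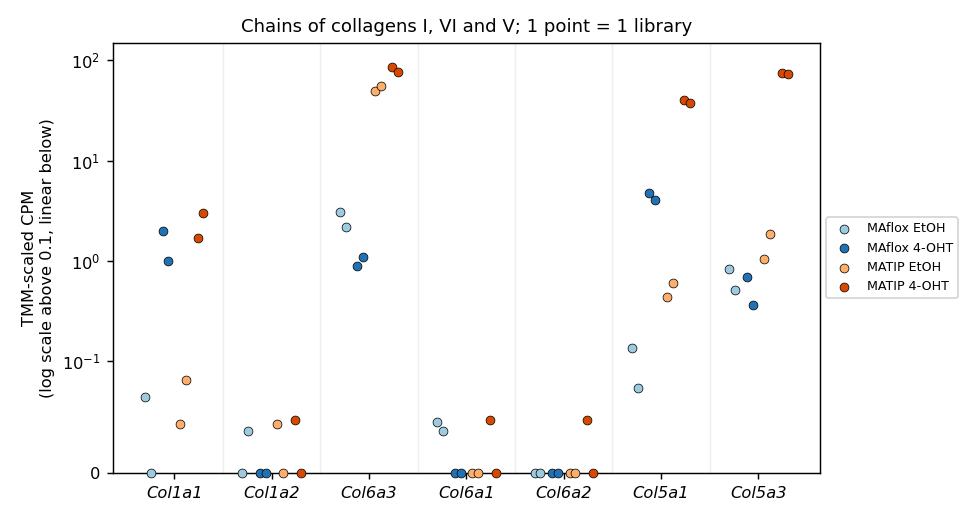
TMM-scaled CPM (vertical axis, logarithmic except at its lowest part, which is linear down to 0) of 7 collagen chain genes of types I, VI and V in the 8 libraries, each point 1 library, grouped by line and treatment. Col6a3 is seen without Col6a1 and Col6a2, and Col1a1 without Col1a2.

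Acta2 (chromosome 19, 34241090 to 34255590, minus strand) encodes smooth muscle alpha-actin, the contractile actin of smooth muscle, pericytes and myofibroblasts. It measured 2.16 and 1.80 CPM in MAflox EtOH, 6.23 and 7.001 CPM in MAflox 4-OHT, 3.98 and 3.95 CPM in MATIP EtOH, and 15.9 and 18.2 CPM in MATIP 4-OHT. In each line the treated libraries lay above the controls with no overlap. Acta2 rose in MAflox by 1.74 ± 0.17 (log2 fold change ± SE, edgeR adjusted p = 2.54e-08), or 3.35-fold. The MATIP log2 fold change was 2.104 ± 0.15, or 4.30-fold, so the responses lay close together, with a difference of 0.36 ± 0.23 (log2).

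Tagln (chromosome 9, 45929619 to 45936058, minus strand) encodes transgelin, an actin-binding protein of smooth muscle. It measured 1.52 and 1.58 CPM in MAflox EtOH, 2.24 and 1.61 CPM in MAflox 4-OHT, 2.31 and 2.09 CPM in MATIP EtOH, and 3.79 and 2.62 CPM in MATIP 4-OHT. The treated library of replicate 1 was the higher one in each line. In MAflox Tagln did not pass the test (log2 fold change 0.32 ± 0.29, edgeR adjusted p = 0.346), and in MATIP its log2 fold change was 0.54 ± 0.27. With the length and GC trend removed these became -0.21 and 0.07. Tagln shares 1241 exon bases with the antisense gene Gm48529 and 108 with Pcsk7, and without knowledge of strand in the counting its few reads cannot be told apart from theirs. Of other smooth muscle genes, some were almost silent: over the 8 libraries Cnn1 had 5 counts, Myl9 had 1, Actg2 had 13, Myh11 had 67 and Myocd had 0. Others were higher in MATIP 4-OHT from a low level. Summed over the MATIP groups, Des, desmin, went from 26 to 200 counts and Mcam from 8 to 275. Cspg4, a pericyte proteoglycan, went from 0 to 422. Mcam and Cspg4 passed the filter on low counts only through MATIP 4-OHT, so their rise there was set in advance. Notch3, a pericyte marker, and Myh11 did not pass the test in MATIP (edgeR adjusted p = 0.0855 and 0.165).

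Promoter sequence was matched for 5 of the 10 genes in RefSeq (GRCm38.p6), from 250 bases before to 50 bases after the start of transcription. Those of Acta2, Sparc and Col6a3 are shown because these genes took different courses: Acta2 higher in both lines, Sparc seen nearly in MATIP 4-OHT alone, and Col6a3 lower in MAflox and higher in MATIP. Capitals mark CArG boxes, the motif bound by serum response factor (SRF), searched on both strands with at most 1 mismatch in the 6 inner bases. Such a match was in 9.98% of the 32841 RefSeq promoters of this length.
Acta2, chr19:34255324-34255623, minus strand: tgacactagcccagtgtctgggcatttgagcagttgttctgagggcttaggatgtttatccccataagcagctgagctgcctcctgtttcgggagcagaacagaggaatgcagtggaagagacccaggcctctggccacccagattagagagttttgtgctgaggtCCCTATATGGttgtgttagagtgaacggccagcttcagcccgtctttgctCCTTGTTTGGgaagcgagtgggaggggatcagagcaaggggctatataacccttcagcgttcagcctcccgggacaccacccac
Sparc, chr11:55420031-55420330, minus strand: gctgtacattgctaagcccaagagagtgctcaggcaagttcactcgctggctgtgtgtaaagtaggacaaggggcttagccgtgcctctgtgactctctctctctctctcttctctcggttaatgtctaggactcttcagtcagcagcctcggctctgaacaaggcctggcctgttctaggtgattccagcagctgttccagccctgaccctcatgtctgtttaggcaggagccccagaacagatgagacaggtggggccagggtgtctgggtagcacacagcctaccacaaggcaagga
Col6a3, chr1:90843922-90844221, minus strand: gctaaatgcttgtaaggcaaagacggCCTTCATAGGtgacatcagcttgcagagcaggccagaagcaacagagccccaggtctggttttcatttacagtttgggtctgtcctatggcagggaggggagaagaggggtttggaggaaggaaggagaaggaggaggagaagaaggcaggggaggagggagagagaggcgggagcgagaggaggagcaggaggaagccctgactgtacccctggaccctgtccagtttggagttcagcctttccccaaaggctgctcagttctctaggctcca
The Acta2 window held 2 matches, at positions -84 to -75 and -34 to -25 from the start. The Col6a3 window held 1, at -224 to -215, and the Sparc window held none. Of the others, Col1a2 had 1 match and Col3a1 none, and the AP-1 site TGANTCA, found in 7.81% of promoters, was in none of the 5. These are matches of letters and say nothing of binding. Srf itself fell with 4-OHT in both lines, from 140 to 83.5 CPM in MAflox and from 158 to 62.7 CPM in MATIP, where its log2 fold change was -1.33 ± 0.06, or -2.05 with the length and GC trend removed. Of its coactivators, Mkl1 did not pass the test in MAflox (edgeR adjusted p = 0.954) and rose in MATIP by 0.68 ± 0.08 on the log2 scale, and Myocd had no count.

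Levels of different genes were compared per kilobase of exon sequence, counted over all annotated exons of a gene. This length exceeds that of the longest transcript by unlike amounts, as in Vwf (16064 against 8834 bases) and Fn1 (11685 against 8315). The order of genes close in level therefore depends on the length used. In MAflox EtOH the order of mean CPM per kilobase was Thbs1 (6.85), Acta2 (0.902), Fn1 (0.811), Tagln (0.779), Col6a3 (0.221) and Vwf (0.0897), with the other 4 at 0.00519 or less. The range of Fn1 overlapped those of Acta2 and of Tagln there, so its place between them is not resolved. Acta2 and Tagln did not overlap on this length, but they do per kilobase of longest transcript. In MAflox 4-OHT the order was Thbs1 (47.4), Acta2 (3.01), Fn1 (1.14), Tagln (0.969), Vwf (0.244), Col1a1 (0.228), Col6a3 (0.0833) and Sparc (0.0152). There Fn1 and Tagln overlapped in their ranges, and so did Vwf and Col1a1. In MATIP EtOH Col6a3 (4.41) took the second place behind Thbs1 (16.6) and ahead of Acta2 (1.81), Tagln (1.11), Fn1 (0.753) and Vwf (0.211). In MATIP 4-OHT the order was Thbs1 (455), Fn1 (16.7), Vwf (15.3), Acta2 (7.76), Col6a3 (6.79), Tagln (1.61), Sparc (1.02) and Col1a1 (0.361). Fn1 and Vwf overlapped in their ranges in that group, and Acta2 and Col6a3 did not. Per kilobase of longest transcript, Vwf lies above Fn1 there, and Acta2 and Col6a3 overlap. Thbs1 was thus the most abundant of the 10 per unit length in each group. On this length Vwf moved from the last of the well-detected genes in MAflox EtOH to the third in MATIP 4-OHT.

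**Figure D3:**
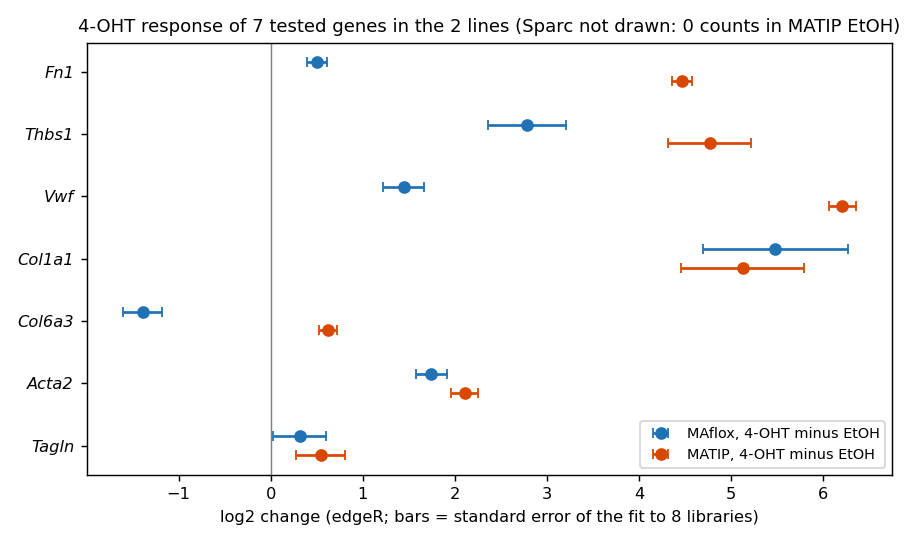
Log2 fold change of 4-OHT against EtOH in MAflox and in MATIP (horizontal axis) for 7 of the genes, with bars of 1 SE from the edgeR fit. Fn1, Vwf and Thbs1 lie further right in MATIP, Acta2, Col1a1 and Tagln have values that lie closer together, and Col6a3 lies on opposite sides of 0; Sparc is left out because its MATIP EtOH count is 0.

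The responses of the lines lay further apart for some of the genes than for others. Fn1 and Vwf had MATIP minus MAflox differences of 3.96 and 4.76 on the log2 scale, and in MAflox they rose by 0.50 and 1.45. Acta2 and Col1a1 had differences of 0.36 ± 0.23 and -0.35 ± 1.21. These differences share the MATIP libraries for which the genes were listed, and no test is given. With the trend on length and GC content removed, the MATIP log2 fold changes were 3.69 for Fn1, 5.30 for Vwf, 4.25 for Col1a1 and 1.64 for Acta2, and the differences were 2.78 for Fn1 and 3.35 for Vwf. In MAflox the same step gave 0.91 for Fn1, 1.95 for Vwf and 1.26 for Acta2.

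A second table, deposited by the authors, gives their own DESeq2 comparisons. In the authors' deposited table the MAflox log2 fold changes are 0.49 for Fn1, 2.52 for Thbs1, 1.34 for Vwf, 3.55 for Col1a1, -1.26 for Col6a3, 1.67 for Acta2 and 0.29 for Tagln. Their MATIP values in the authors' deposited table are 4.50, 3.96, 6.10, 4.68, 0.66, 2.13 and 0.57 in the same order of genes, and 7.28 for Sparc. The authors' deposited table lists Col1a2 and Col3a1 with no adjusted p in either line. For the 8 genes fitted with edgeR the signs are the same in both.

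Around the 10 genes, 237 other genes of the matrix and of contractility were followed in 9 lists with no member in them, of which 166 were tested. In MAflox 75 of them rose and 34 fell, together 65.7%, beside 65.2% of all genes tested, and their median log2 fold change was 0.37 beside 0.02. In MATIP 113 rose and 24 fell, together 82.5%, beside 76.1% of all genes, with a median of 1.45 beside 0.00. The share called in either direction was thus near that of all genes in MAflox, but among the list genes rises outnumbered falls. Of all genes tested, 33.1% rose and 32.1% fell in MAflox, and 37.5% rose and 38.6% fell in MATIP. In MATIP some list genes, such as Cspg4, passed the filter on low counts only through MATIP 4-OHT. Their rise there was set in advance.

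Among interstitial collagens, 6 of 19 were tested; 1 rose and 1 fell in MAflox, 3 rose and none fell in MATIP, and the median log2 fold changes were -0.35 and 2.63. Col5a1 and Col5a3, chains of the type V collagen that starts fibrils, rose in MATIP from 0.519 to 39.1 CPM and from 1.46 to 73.5 CPM. In MAflox Col5a1 rose from 0.106 to 4.41 CPM, and Col5a3 did not pass the test (log2 fold change -0.30 ± 0.37, edgeR adjusted p = 0.495). Col11a2 fell there by a log2 fold change of -0.40 ± 0.10, which became 0.054 with the length and GC trend removed. Basement membrane genes had 14 of 22 tested, with 4 up and 4 down in MAflox and 10 up and none down in MATIP, and median log2 fold changes of 0.01 and 1.90. Lamc1, the laminin gamma-1 chain, fell in MAflox from 18.8 to 5.04 CPM and rose in MATIP from 12.5 to 31.6 CPM. Col4a2 fell in MAflox from 9.77 to 5.32 CPM. Agrn, the proteoglycan agrin, rose in MAflox from 6.60 to 12.1 CPM, but without MAflox 4-OHT replicate 1 its edgeR adjusted p was 0.0596; in MATIP it rose by 2.54 ± 0.20 (log2 fold change). Without that library the MAflox list count was 1 up and 2 down, and without MAflox EtOH replicate 2 it was 2 up. Without MAflox EtOH replicate 1, MATIP EtOH replicate 1 or MATIP 4-OHT replicate 1, each in turn, 2 interstitial collagens fell in MAflox. With the length and GC trend removed, the MATIP log2 fold changes were 5.25 for Col5a1, 4.63 for Col5a3, 0.60 for Lamc1 and 1.65 for Agrn.

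Matricellular and adhesive glycoproteins had 21 of 35 tested, with 10 up and 3 down in MAflox (median log2 fold change 0.66) and 16 up and 3 down in MATIP (median 2.26). Spp1, osteopontin, rose by 3.64 ± 0.08 and 6.42 ± 0.09 on the log2 scale. Nov, a CCN family protein, rose from 62.7 to 357 CPM in MAflox and from 62.4 to 4642 CPM in MATIP. Tgfbi rose in MATIP from 3.603 to 90.2 CPM, and Ecm1 rose in MAflox by 2.27 ± 0.13 (log2 fold change). Collagen modification genes were divided, with 12 up and 5 down of 20 tested in MAflox and 9 up and 7 down in MATIP, and medians of 0.42 and 0.41. P4hb, a subunit of prolyl hydroxylase, rose in MAflox by 0.47 ± 0.06 and fell in MATIP by 1.41 ± 0.06 on the log2 scale. F13a1, the crosslinking factor XIII subunit, rose by 1.17 ± 0.09 in MAflox and fell by 0.63 ± 0.09 in MATIP. Without MAflox 4-OHT replicate 2 only 2 of the collagen modification genes fell in MAflox, and 1 matricellular gene fell in MATIP without MATIP EtOH replicate 1 or without either MATIP 4-OHT library. With the length and GC trend removed Spp1 stood at 2.92 and 5.80.

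Matrix proteases and their inhibitors rose most often, with 17 up and 1 down of 21 tested in MAflox and 20 up and 1 down in MATIP, and with median log2 fold changes of 3.41 and 4.39. Mmp9, gelatinase B, rose by 5.94 ± 0.15 in MAflox and 7.64 ± 0.10 in MATIP, and Mmp12, macrophage elastase, by 4.21 ± 0.09 and 5.75 ± 0.08. Serpinb2, an inhibitor of plasminogen activators, rose in MAflox from 0.302 to 62.3 CPM. Of the receptors for the products of the 10 genes, 24 of 31 were tested, with 8 up and 6 down in MAflox and 16 up and 2 down in MATIP, and medians of -0.09 and 0.79. Cd44, the hyaluronan receptor, rose in MATIP from 234 to 1544 CPM. Sdc3, a syndecan, rose by 3.33 ± 0.17 in MAflox and 4.99 ± 0.16 in MATIP (log2 fold changes), the latter 4.19 with the length and GC trend removed. Serpinb2 in MAflox was 7.64 ± 0.16 on the log2 scale, 8.23 without MAflox EtOH replicate 2 and 7.01 with that trend removed. With library totals in place of TMM factors, 10 receptors fell in MAflox, and without MATIP EtOH replicate 2 or MATIP 4-OHT replicate 1 no protease or inhibitor fell in MATIP.

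TGF-beta signalling, which drives collagen and smooth muscle actin genes in fibroblasts, had 24 of 28 genes tested. In MAflox 10 rose and 5 fell (3 without MAflox 4-OHT replicate 2), and in MATIP 17 rose and 3 fell, with median log2 fold changes of 0.21 and 1.30. Tgfbr2, the type II receptor, rose by 1.54 ± 0.07 and 2.45 ± 0.07 on the log2 scale. Skil, a repressor of SMAD proteins, rose in MAflox by 1.001 ± 0.10, and its relative Ski rose in MATIP by 1.47 ± 0.07. With the length and GC trend removed the MATIP values were 1.83 for Tgfbr2 and 0.73 for Ski. Actin and contractility genes had 26 of 31 tested, with 11 up and 5 down in MAflox and 16 up and 5 down in MATIP (medians 0.32 and 0.74). Cnn2 rose in MAflox by 1.92 ± 0.06 and Vim, vimentin, in MATIP by 2.21 ± 0.06, while Mylk, the myosin light chain kinase, fell in MAflox by 2.24 ± 0.08 on the log2 scale. SRF and YAP regulators had 11 of 17 tested, with 3 up and 4 down in MAflox and 7 up and 3 down in MATIP (medians -0.01 and 0.68); with library totals in place of TMM factors 1 rose in MAflox.

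**Figure D4:**
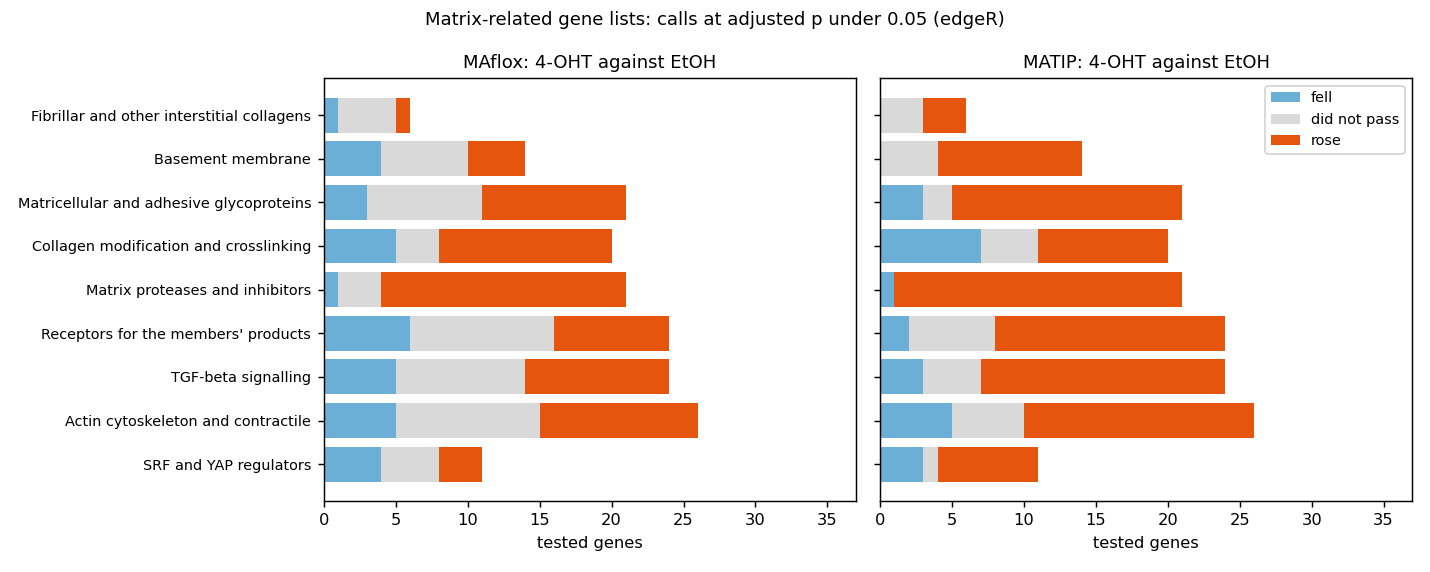
Number of tested genes (horizontal axis) in each of the 9 lists that fell, did not pass the test or rose with 4-OHT, as stacked bars, for MAflox and MATIP. Proteases and inhibitors have the highest share up in each line, with 17 of 21 and 20 of 21 tested.

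Markers of cell types were measured beside these results. A marker near 0 outside MATIP 4-OHT could pass the filter on low counts only through that group. Its rise there was then set in advance, so the MATIP counts below are descriptions. Beside them, 33.1% of all genes tested rose and 32.1% fell in MAflox, and 37.5% rose and 38.6% fell in MATIP. Of the 18 fibroblast and marrow stroma markers, Dcn, Lum, Bgn, Dpt, Twist2, Tcf21 and Mfap5 had 0 counts in all 8 libraries. The summed level of that list was 213 to 230 CPM in MAflox EtOH, 330 to 343 in MAflox 4-OHT, 167 to 187 in MATIP EtOH and 393 to 439 in MATIP 4-OHT, and it came mostly from Thy1 and S100a4, which blood cells also express. Of 8 tested, 5 rose and 1 fell in MAflox, and 7 rose in MATIP. Of those that rose in MAflox, Pdgfra had 0 and 0 counts in EtOH and 0 and 9 in 4-OHT, so its call rests on 1 library. Ddr2 had 0 and 0 counts against 14 and 12. Pdgfra and Cxcl12 passed the filter on low counts only through MATIP 4-OHT. Pdgfrb, the third most abundant of the list, fell in MAflox by 3.24 ± 0.50 and rose in MATIP by 1.46 ± 0.31 on the log2 scale. Pericyte and smooth muscle markers summed to 0.544 to 0.908 CPM in the 6 libraries outside MATIP 4-OHT and to 10.4 to 11.03 CPM in MATIP 4-OHT. Myocd was at 0, and 1 of 5 tested rose in MAflox and 3 in MATIP. The MAflox one was Myh11, with 0 and 0 counts in EtOH and 8 and 2 in 4-OHT. Among those of MATIP, Cspg4 and Mcam passed the filter on low counts only through MATIP 4-OHT. Their calls there were set in advance and are not read as test results.

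Endothelial markers summed to 166 to 173 CPM in MAflox libraries, 123 to 126 in MATIP EtOH and 90.9 to 93.8 in MATIP 4-OHT, with Emcn, Cldn5, Robo4 and Sox17 at 0 throughout. That sum came mostly from Pecam1, Erg and Egfl7, and single markers went other ways: 2 of 10 tested rose and 2 fell in MAflox, and 5 rose and 3 fell in MATIP. Those that rose in MATIP were Kdr, Mmrn2, Cdh5, Plvap and Tie1, all at a low level, with Kdr going from 4 to 345 counts over the group. Kdr, Mmrn2, Cdh5 and Tie1 passed the filter on low counts only through MATIP 4-OHT. Their calls there were thus set in advance and are not read as test results. Cdh5, a defining endothelial cadherin, had 38 counts over the 8 libraries, 24 of them in MATIP 4-OHT. Megakaryocyte and platelet markers summed to 120 to 124 CPM in MAflox EtOH, 99.1 to 111 in MAflox 4-OHT, 165 to 170 in MATIP EtOH and 325 to 333 in MATIP 4-OHT. None of the 18 was at 0 in all libraries; of 13 tested, 6 rose and 1 fell in MAflox and 9 rose in MATIP. Nbeal2, F2rl2 and Itgb3 were the most abundant.

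Macrophage markers summed to 106 to 122 CPM in MAflox EtOH, 442 to 499 in MAflox 4-OHT, 150 to 170 in MATIP EtOH and 6991 to 6998 in MATIP 4-OHT, with only C1qa at 0 in all libraries. Of 13 tested, 10 rose and 2 fell in MAflox and 11 rose and 2 fell in MATIP. Cd163 and Apoe were the ones that fell, in both lines. The most abundant were Gpnmb, Adgre1 and Cd68. In MATIP 4-OHT Gpnmb alone, at 5065 and 5063 CPM, made up most of the sum. Blood cell and leukaemia markers, which fit the labelled cells, summed to 6556 CPM or more in every library, and all 16 were tested. Of these, 9 rose and 4 fell in MAflox, and 9 rose and 5 fell in MATIP. Mpo, the most abundant over all libraries, fell from 4669 to 1717 CPM in MAflox and from 7908 to 1641 CPM in MATIP. Adipocyte markers summed to 23.6 to 25.4, 74.4 to 84.4, 29.7 to 36.3 and 214 to 228 CPM in the groups in the same order, led by Fabp4 and Pparg, which macrophages also express, with Lep at 0. Epithelial markers reached 47.7 to 49.3 CPM in MATIP 4-OHT, mostly Cdh1, and 3 of 4 tested rose in each line. Of the osteoblast list 3 of 10 were tested, with Ibsp, Dmp1 and Sost at 0; none rose and 2 fell in MAflox, and 1 rose in MATIP. The part of these cell types in the levels of the 10 genes was not tested.

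**Figure D5:**
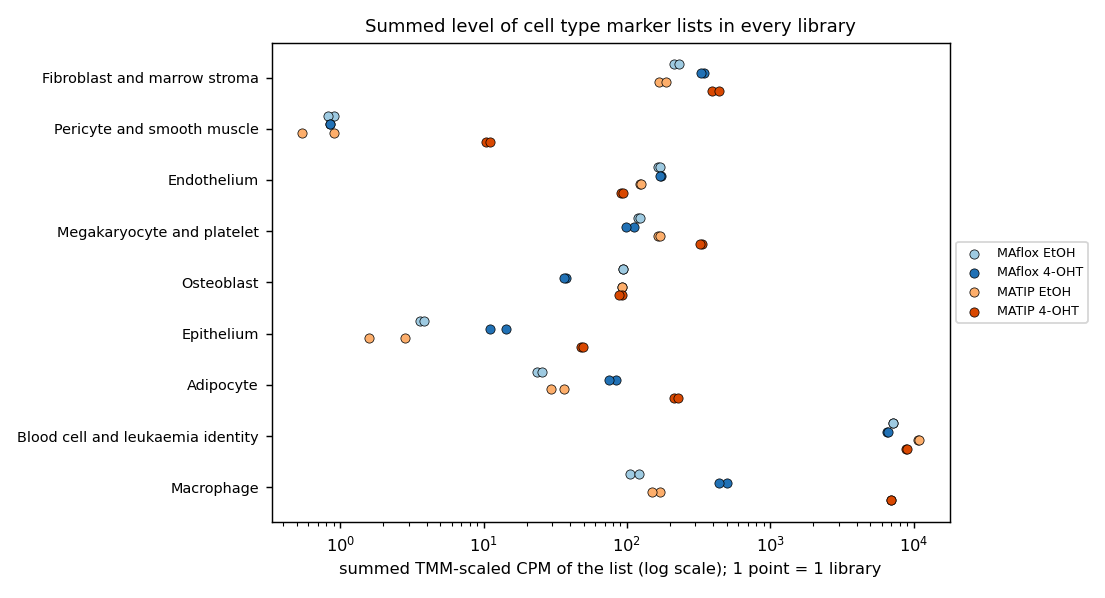
Summed TMM-scaled CPM of each cell type marker list (logarithmic axis) in the 8 libraries, 1 point a library. The macrophage list, whose sum in MATIP 4-OHT is mostly Gpnmb, spans the widest range between groups. The summed endothelial level, mostly Pecam1, Erg and Egfl7, is lowest in MATIP 4-OHT.

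Genes with the most similar course over the 8 libraries were found by Pearson's r of log2 CPM, among 10423 or 10424 genes per comparison. The libraries share groups and depth, so r is a description. Fn1 was most like Srxn1, Ahnak and Psen2, each at 0.998, and Vwf was close to Csf1r and Slc9a4, also at 0.998. Thbs1 was most like Acvr1b (0.992), Rgs1 and Scel (0.991 each). Acta2 was most like Asb4, Scrn3 and Pid1 (0.996 each), and Col6a3 like Map1b (0.996), Ptger1 (0.995) and Pbx3 (0.994). Col1a1 was most like Ube2l6 (0.993), Pabpc1l (0.992) and Cyb561 (0.990), and Sparc like Exoc1, Nmi (0.991 each) and Kdm1b (0.990). Tagln had no such close neighbour, with Pacs2 (0.943), Lcor (0.937) and Sik1 (0.930) the nearest. Only genes at 5 CPM or more in the mean of 1 group could be named as neighbours. Col1a1, Col1a2, Col3a1, Sparc and Tagln were below that and could not appear. Fn1, Thbs1, Vwf, Col6a3 and Acta2 could, and none of them was among the nearest of another.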

How the data were processed

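RNA-seq of 8 libraries was used. The deposited table holds raw read counts per gene, not normalized by the authors; it has 23 empty columns, and 0 of its rows name no gene. The submitters' processing notes name build mm10, the counter featureCounts 1.6.4, the aligner HISAT2 2.1.0, Trimmomatic 0.38.0 for trimming, and DESeq2. Strandedness, annotation and multi-mapping were not given in the sources used here. A second deposited table holds the authors' log2 fold changes and adjusted p-values, per the file headers.

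Genes with enough counts in a group (filterByExpr, minimum 10 per library and 15 in total) were kept, 13722 of 24421. TMM-scaled counts were fitted with edgeR 4.0.16 quasi-likelihood (R 4.3.3), 1 coefficient per group, with a biological coefficient of variation of 5.98% and 4 residual degrees of freedom. The SE is the log2 fold change over the square root of F. Counts of replicates differed beyond sampling noise, with chi-square per degree of freedom at 7.09 to 13.1. A floor of 3 counts over a group stands for 0. Depth was 41101309 to 57312490 counts. Positions and exon lengths come from GENCODE M21, promoters from RefSeq.

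The members and lists were chosen with earlier results of these data known. Named from each list and line were up to 3 called genes with the smallest p at 5 CPM or more in 1 group; from each cell type list, the 3 highest and those at 0; for each member with 20 counts or more in a group mean, the 3 most correlated genes. Not every gene so named is reported here. Partner genes were chosen after values were seen. Alternatives were DESeq2 1.42.0, library totals without TMM, no filter on low counts, the replicate number as a block, removal of a length and GC trend, and leaving out each library.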

Additional observations from a re-analysis of the deposited data

Results flagged for a closer look

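For these genes the 2 lines moved in opposite directions with 4-OHT, every library included. Col6a3 fell in MAflox and was higher in MATIP, a difference of responses (MATIP minus MAflox, log2) of 2.01 ± 0.23; it was not tested because the genes were listed for the MATIP response, and with the length and GC trend removed the MATIP side turned. The other genes are listed because their libraries moved in opposite directions in the lines. A difference of responses was thus set by that choice, and no test of it is given. The difference was 3.24 ± 0.15 for Lamc1, a laminin chain, 1.73 ± 0.10 for Ski, a SMAD repressor, and 2.04 ± 0.16 for Mkl2, an SRF coactivator, each in the direction of MATIP. It was -1.80 ± 0.13 for F13a1, -1.88 ± 0.08 for P4hb and -4.61 ± 0.41 for Amotl2, a YAP-binding motin, each in the direction of MAflox.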

How the results depend on the processing

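The count of genes among the 10 that rose in MAflox was 5 under each alternative with a test. Called list genes numbered 109 in MAflox (96 to 110 over the alternatives, and over leaving out libraries) and 137 in MATIP (128 to 145). With the replicate number as a block these were 5, 105 and 134; same-numbered libraries did not deviate together (correlations -0.0023 in MAflox and -0.039 in MATIP), so the numbers were not taken as pairs. Values that changed sign were Sparc in MAflox without MAflox 4-OHT replicate 2 (-3.19), and, with the length and GC trend removed, Col6a3 in MATIP (-0.23), Col11a2 in MAflox (0.054) and Tagln in MAflox (-0.21). When single libraries were left out, the differences of responses of Col1a1 (up to 0.70) and Tagln (down to -0.03) changed sign too, and Sparc in MAflox ranged up to 4.47. Among single genes 1049 values stayed, 60 moved and 1 lost its call, Agrn in MAflox without MAflox 4-OHT replicate 1; of list counts 487 stayed and 17 moved by over 1.5 times; the causes were not tested. With 2 libraries a group the spread rests on all groups, and genes of a few counts, such as Col1a2, Col3a1 and Sparc outside MATIP 4-OHT, are limited by depth.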
